A study of Mus musculus with 6 samples.

Results

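The circadian clock genes and the PAR bZIP genes comprised 10 genes, namely Arntl, Clock, Per1, Per2, Per3, Nr1d1, Nr1d2, Dbp, Tef and Hlf. They were measured by every non-control probe whose gene name on the array was one of these symbols, which gave 17 of the 61307 probes, and the array carried 50090 gene names in all. Arntl, Per1, Per3, Nr1d2, Dbp and Hlf had 1 probe each, Per2 had a pair, and Clock, Nr1d1 and Tef had 3 each. Where a gene had several probes they were lettered from the brightest (A) by their mean signal over the arrays, and each was kept on its own.

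In mammalian cells ARNTL (BMAL1) and CLOCK form a heterodimer that binds E-box sequences and activates transcription. Among its targets are the Per genes, whose protein products feed back to repress the heterodimer, and Nr1d1 and Nr1d2 (REV-ERB alpha and beta), which repress Arntl through ROR response elements. The PAR bZIP proteins DBP, TEF and HLF bind D-box sequences and carry the rhythm to other genes, and NFIL3 represses at the same sequences. Cultured fibroblasts have such a clock in each cell, which serum can set in phase across the dish, and Per1 and Per2 also respond to serum and cAMP as immediate early genes.

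RNA from mouse NIH3T3 fibroblasts was hybridized to 6 one-colour arrays. The GFP cells carried GFP alone in the retroviral vector pCX4Neo and served as the control, and the LT7 and ST7 cells carried SIRT7 fused to GFP in the same vector. LT7 were the long cells and ST7 the small cells of the SIRT7GFP cultures, each expanded from single cell clones, and all were grown in DMEM with 10% FBS. Each group had 2 replicates from different passages, and the comparisons asked how each of these lines differed from GFP and the lines from each other. How many clones stood behind a group, the density of the cultures and the time of RNA isolation after feeding were not given in the sources used here, so differences between clones, culture states or clock phases cannot be told apart from the effect of SIRT7.

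The arrays labelled ST7 stood apart from the others. The 75th percentile of the signal was 317 to 384 on the GFP and LT7 arrays and 16.3 to 17.1 on the ST7 arrays, and 47.5% to 57.5% of the probes were well above background on the former against 25.8% to 26.4% on the latter. Sirt7 was read by a pair of probes, and the brighter gave 3125 and 2480 on the GFP arrays and 3633 and 2782 on the LT7 arrays. Before scaling both probes overlapped between LT7 and GFP. After each array was scaled to its 75th percentile both read higher in LT7 without overlap, as 38% of all probes did. The brighter probe gave 2.85 and 3.28 on the ST7 arrays, not well above background, so there the RNA of the overexpressed gene goes against the label. By immunoblot the paper found SIRT7GFP protein in both lines, without a significant difference between them. Whether these probes read the introduced transcript was not given in the sources used here, and LT7 and ST7 stand below for the libraries so labelled. By the brightest probe of each of 10 fibroblast markers, all were well above background on both arrays of GFP and of LT7 and 4 on both arrays of ST7 (Col1a1, Col1a2, Vim and S100a4), where a dimmer probe of Fn1 was so too, at 24.3 and 20.2. The second scan held LT7 replicate 1 alone. Precision is limited by the number of arrays, 2 in each group.

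The sequences below are the 60-base probes of the genes on which the results turned, as the deposited files gave them. Dbp and Hlf had the largest differences between LT7 and GFP, and the probes of Per2 and of Nr1d1 differed among themselves.
Dbp: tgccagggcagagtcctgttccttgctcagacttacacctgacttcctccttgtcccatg
Hlf: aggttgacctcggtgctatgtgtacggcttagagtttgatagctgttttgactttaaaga
Per2 A: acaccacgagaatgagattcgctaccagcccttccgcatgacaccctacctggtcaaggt
Per2 B: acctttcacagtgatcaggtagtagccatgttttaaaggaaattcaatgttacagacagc
Nr1d1 A: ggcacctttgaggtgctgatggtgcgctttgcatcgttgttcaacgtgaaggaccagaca
Nr1d1 B: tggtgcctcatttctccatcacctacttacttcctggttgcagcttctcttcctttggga
Nr1d1 C: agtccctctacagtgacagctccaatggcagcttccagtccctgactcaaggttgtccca
The pair of Per2 probes shared no run longer than 4 bases and those of Nr1d1 none longer than 8, so probes of a gene read separate stretches of its transcript. The files gave no position for these probes, and no exon could be assigned to them. In the RefSeq table of GRCm38.p6 Nr1d1 overlaps Thra, and Dbp overlaps Sphk2 on the opposite strand.

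Promoter windows of 250 bases before to 50 bases after a transcription start were given by RefSeq (GRCm38.p6) for 9 of the 10 genes, with 14 windows in all, and Per2 was not among them. The E-box CACGTG was found in 3 of the 14 windows (1 of Per1 and both of Tef) and in 7.15% of all 32851 windows. The D-box, searched as TTATGTAA and TTACGTAA, was found in the window of Per3 alone, and in 1.06% of all. The ROR element, searched as TAGGTCA and TGGGTCA, was found in 1 window of Arntl and 6.45% of all, CACGTT in that of Nr1d1 and 4.68% of all, and the cAMP response element TGACGTCA in that of Hlf and 1.79% of all. Both strands were searched, none of the matches overlapped, and a match describes the letters only. The windows of Dbp, Hlf, Per1 and Per3 are shown with the matches in capitals, the first pair because these genes differed most between LT7 and GFP, the others because they hold the E-box and the D-box.
Dbp promoter, chr7:45704997-45705296, plus strand: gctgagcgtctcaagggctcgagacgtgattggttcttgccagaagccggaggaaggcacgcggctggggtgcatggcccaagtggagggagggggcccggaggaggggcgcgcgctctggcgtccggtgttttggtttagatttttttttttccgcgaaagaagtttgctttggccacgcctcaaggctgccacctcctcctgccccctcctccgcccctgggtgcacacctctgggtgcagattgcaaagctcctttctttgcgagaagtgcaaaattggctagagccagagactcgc
Hlf promoter, chr11:90390868-90391167, minus strand: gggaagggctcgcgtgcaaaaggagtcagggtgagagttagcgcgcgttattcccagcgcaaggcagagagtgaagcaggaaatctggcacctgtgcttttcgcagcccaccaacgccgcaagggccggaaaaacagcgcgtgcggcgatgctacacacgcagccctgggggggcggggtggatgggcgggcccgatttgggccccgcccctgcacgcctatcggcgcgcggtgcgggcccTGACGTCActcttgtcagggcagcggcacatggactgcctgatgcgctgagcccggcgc
Per1 promoter, chr11:69098699-69098998, plus strand: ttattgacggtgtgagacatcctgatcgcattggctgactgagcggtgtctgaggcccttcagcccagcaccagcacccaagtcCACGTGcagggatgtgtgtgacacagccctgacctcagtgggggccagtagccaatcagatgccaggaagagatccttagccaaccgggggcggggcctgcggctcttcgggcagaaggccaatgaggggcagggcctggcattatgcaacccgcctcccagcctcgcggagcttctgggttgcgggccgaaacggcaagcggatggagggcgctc
Per3 promoter, chr4:151044616-151044915, minus strand: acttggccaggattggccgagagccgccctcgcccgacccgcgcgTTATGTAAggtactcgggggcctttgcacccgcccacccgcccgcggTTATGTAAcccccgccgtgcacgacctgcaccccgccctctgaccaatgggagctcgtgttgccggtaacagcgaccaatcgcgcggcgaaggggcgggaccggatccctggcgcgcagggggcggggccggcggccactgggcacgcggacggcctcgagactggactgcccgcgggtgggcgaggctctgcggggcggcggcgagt
In Per1 the E-box began 166 bases before the start, in Per3 the D-boxes began 205 and 158 bases before it, and in Hlf the cAMP response element began 9 bases before it. None of the searched letters were in the window of Dbp.

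In LT7 against GFP the PAR bZIP genes held both of the largest differences, which ran in opposite directions. The signal of Dbp was 1473 and 1053 in GFP and 2671 and 2458 in LT7. Both LT7 arrays read above both GFP arrays, before and after scaling. After each array was scaled to its 75th percentile the log2 change was 1.14 (SE 0.23, n = 2 per group), or 2.20-fold higher, with an unadjusted p of 0.0041 and an adjusted p = 0.10 by limma over all probes, so it did not pass 0.05.

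Hlf lay on the other side. Its signal was 535 and 331 in GFP and 68.8 and 59.1 in LT7, all well above background, and the groups were far from overlapping. The log2 change was -2.62 (SE 0.30), or 6.16-fold lower, with an unadjusted p of 0.00025 and an adjusted p = 0.08 by limma, which also missed the threshold. Among the 26977 probes that all 4 arrays read well above background, Hlf lay at percentile 0.10 and Dbp at percentile 98.7 of the log2 changes.

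The third PAR bZIP gene, Tef, did not pass the test with any probe. The brightest, Tef A, read 847 and 644 in GFP and 997 and 1049.9 in LT7, with no overlap between the groups and a log2 change of 0.57 (SE 0.75, adjusted p = 0.72). The standard error is shared by all 6 arrays, and for this probe the ST7 arrays were 2.95 and 15.6. Tef B read 52.1 and 31.0 in GFP and 52.3 and 41.3 in LT7, which overlapped. Tef C averaged 12.7 ± 3.13 (SD, n = 2) in GFP and 13.4 ± 2.94 in LT7 and was well above background on 1 of the 4 arrays.

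Counted over the 17 probes, limma called 0 in LT7, against 0.176% of all probes tested, and 2 had an unadjusted p under 0.05, Dbp and Hlf, where 27.2% of all probes did. That share was lower among brighter probes. With limma kept to probes that at least 2 of the 6 arrays read well above background, it was 3383 of 34307. With 2 arrays in each group a missed threshold does not show equal levels. A fold rule after the methods of the study, a log2 ratio of at least 0.8 to the GFP mean in each replicate with a mean over 1, was passed by the same 2 probes, against 5.91% of all probes. With normexp background correction limma called both (Dbp 1.05, adjusted p = 0.024, and Hlf -1.79, adjusted p = 0.01), among 438 of all 61307 probes. When the test was kept to probes that at least 2 of the 6 arrays read well above background it called Hlf (adjusted p = 0.042), among 209 of 34307. With quantile normalization limma called neither (adjusted p = 0.51 for Dbp and 0.8 for Hlf) and 5 of all probes. Scaling on spike-in RNAs turned Dbp to -1.08, beside a median of -2.05 over all probes. Over the leave-out of each array in turn the log2 change was 1.02 to 1.26 for Dbp and -2.85 to -2.40 for Hlf, and without LT7 replicate 1, which was scanned alone, it was 1.13 and -2.68.

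**Figure D1:**
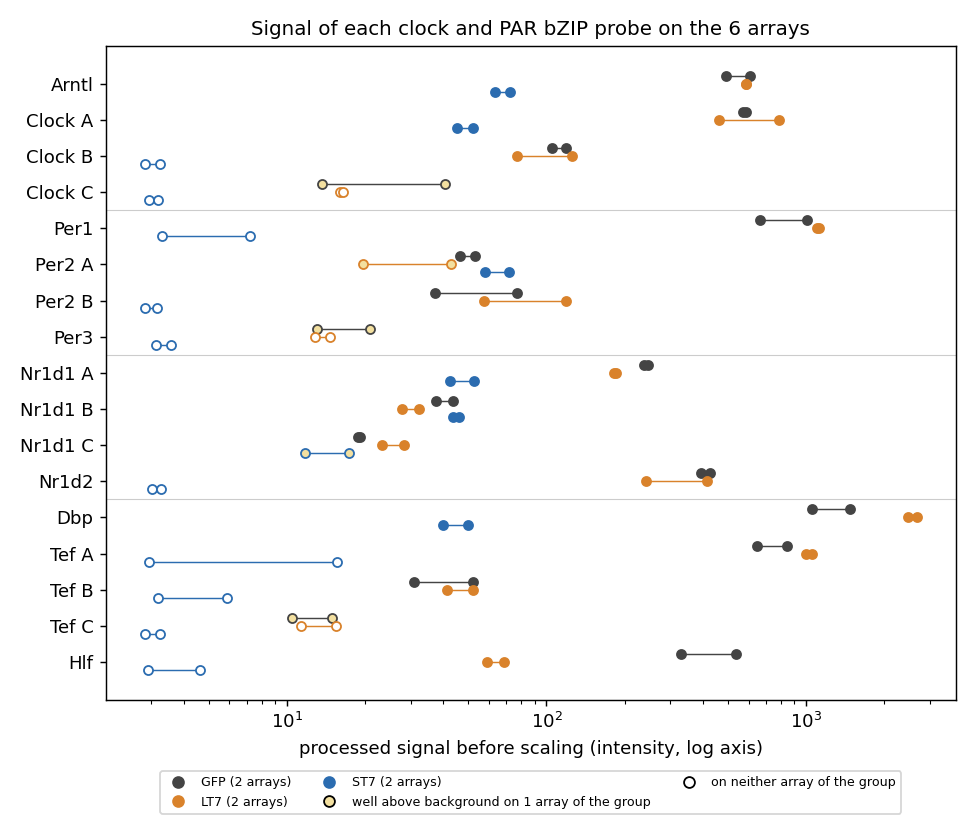
Processed signal before scaling (log axis) of the 17 probes on each of the 6 arrays, with a line joining the 2 arrays of a group. Dbp lies to the right and Hlf to the left of GFP in LT7, and for 10 of the 17 probes neither ST7 array is well above background (open symbols).

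No probe of the activators passed the test in LT7 against GFP. Arntl read 608 and 492 in GFP and 586 and 585 in LT7, a log2 change of 0.20 (SE 0.19, adjusted p = 0.61). Clock A read 570.0 and 587 in GFP and 786 and 463 in LT7, so that the GFP values lay between those of LT7, and its log2 change was 0.16 (SE 0.29, adjusted p = 0.81). Clock B read 105.04 and 119 in GFP and 125 and 77.0 in LT7, again with the GFP values inside the LT7 range. Clock C read 40.8 and 13.7 in GFP and 16.0 and 16.5 in LT7, where it was not well above background.

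Among the repressors Per1 was the brightest probe in LT7 and read 1005 and 667 in GFP and 1123 and 1098 in LT7. The LT7 arrays both lay above the GFP arrays, and the log2 change of 0.54 (SE 0.43, adjusted p = 0.51) did not pass the test. The standard error is shared by the arrays of all groups. For Per1 the ST7 arrays, not well above background, lay furthest apart, at -1.18 and -2.37 after scaling. The GFP arrays were at 1.39 and 1.04 and the LT7 arrays at 1.72 and 1.79. With only LT7 and GFP in the limma fit, Per1 had an adjusted p = 0.29 and also missed the threshold. The Per2 probes lay apart. Per2 A read 46.5 and 53.0 in GFP and 19.7 and 43.0 in LT7, well above background on 1 of the LT7 arrays, with a log2 change of -0.67 (SE 0.46). Per2 B read 77.1 and 37.1 in GFP and 119 and 57.7 in LT7, with a log2 change of 0.73 (SE 0.43), and the groups overlapped. Leaving out 1 array at a time gave -1.29 to -0.056 for Per2 A and 0.26 to 1.20 for Per2 B. Per3 read 20.8 and 13.1 in GFP and 12.8 and 14.6 in LT7, near background, and was well above it on 1 of these 4 arrays.

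The REV-ERB genes, which close the loop on Arntl, also had no probe that passed the test. Nr1d1 A read 238 and 245 in GFP and 185 and 182 in LT7. The LT7 arrays read lower without overlap, and the log2 change was -0.30 (SE 0.24, adjusted p = 0.51). Nr1d1 B read 37.5 and 43.5 in GFP and 27.7 and 32.3 in LT7 (log2 change -0.34, SE 0.26), lower without overlap before scaling and overlapping after it. Nr1d1 C read 19.1 and 18.7 in GFP and 23.2 and 28.2 in LT7 (log2 change 0.53, SE 0.27), so that the dimmest probe of the gene lay on the other side. Nr1d2 read 393 and 426 in GFP and 416 and 242 in LT7, which overlapped.

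**Figure D2:**
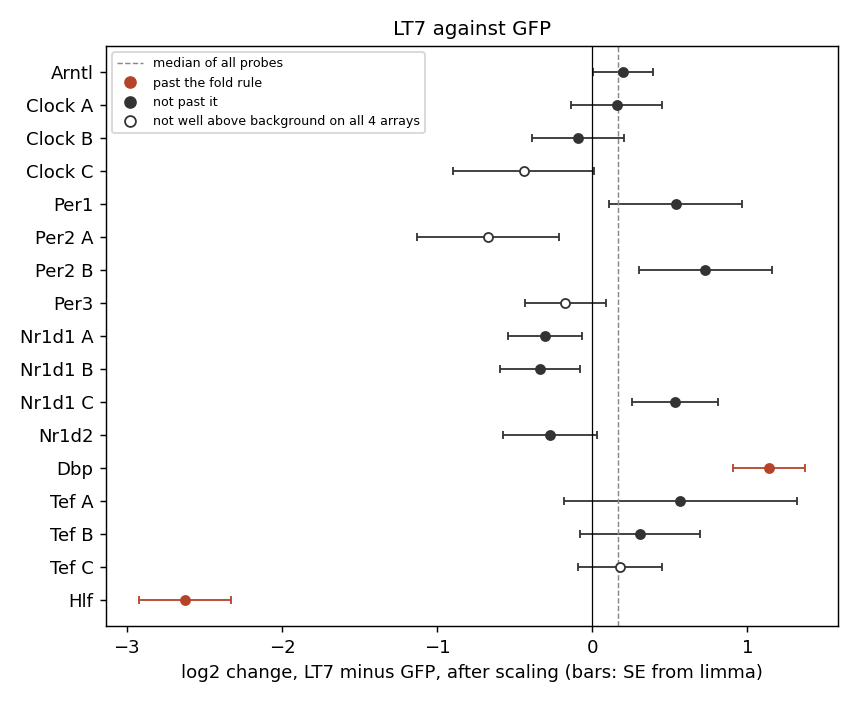
The log2 change of LT7 against GFP after scaling for each of the 17 probes, with the standard error from limma and a dashed line at the median of all probes (0.17). Hlf at -2.62 and Dbp at 1.14 stand outside the range of the other 15 probes, which runs from -0.67 to 0.73.

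As a set, 9 of the 17 probes had a positive and 8 a negative log2 change in LT7, with a median of 0.16 beside 0.17 over all probes. Over the 26977 probes that all 4 arrays read well above background, as 13 of the 17 were, the median was 0.031. After scaling 5 lay above GFP without overlap and 2 below, where 38% and 15% of all probes did so. Before scaling 4 lay above and 4 below, against 33.1% and 20.8% of all probes.

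Other genes of the clock were read from the brightest probe of 22 further genes, of which 4 carried an older name on the array and were matched by accession. In LT7 limma called 0 of the 22 and 3 had an unadjusted p under 0.05, against 0.176% and 27.2% of all probes. With limma kept to probes that at least 2 of the 6 arrays read well above background, 3383 of 34307 had such a p. The median log2 change of the 22 was 0.18, beside 0.17 over all probes and 0.031 over those that all 4 arrays read well above background. The 3 genes, singled out after their values were seen, were Nfil3, Wee1 and Fbxl21, and Fbxl21 was well above background on none of the 6 arrays. Nfil3, the repressor at D-boxes, read 2206 and 1847 in GFP and 1382 and 1260.2 in LT7. It was lower without overlap, with the log2 change at -0.51 (SE 0.19, adjusted p = 0.15). Its other probe gave -0.45 (SE 0.33). Rora, an activator at the elements that REV-ERB occupies, read 181 and 99.7 in GFP and 127 and 166 in LT7.

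The enzymes that modify the clock proteins also showed no call. Csnk1d, a kinase of the PER proteins, read 19995 and 16840 in GFP and 14101 and 18403 in LT7. Csnk1e, its close relative, read 16956 and 16387 in GFP and 17525 and 20523 in LT7. For Fbxw11, a subunit of the ligase for PER proteins, and for Gsk3b, a kinase, the log2 changes were 0.14 (SE 0.23) and -0.24 (SE 0.25).

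**Figure D3:**
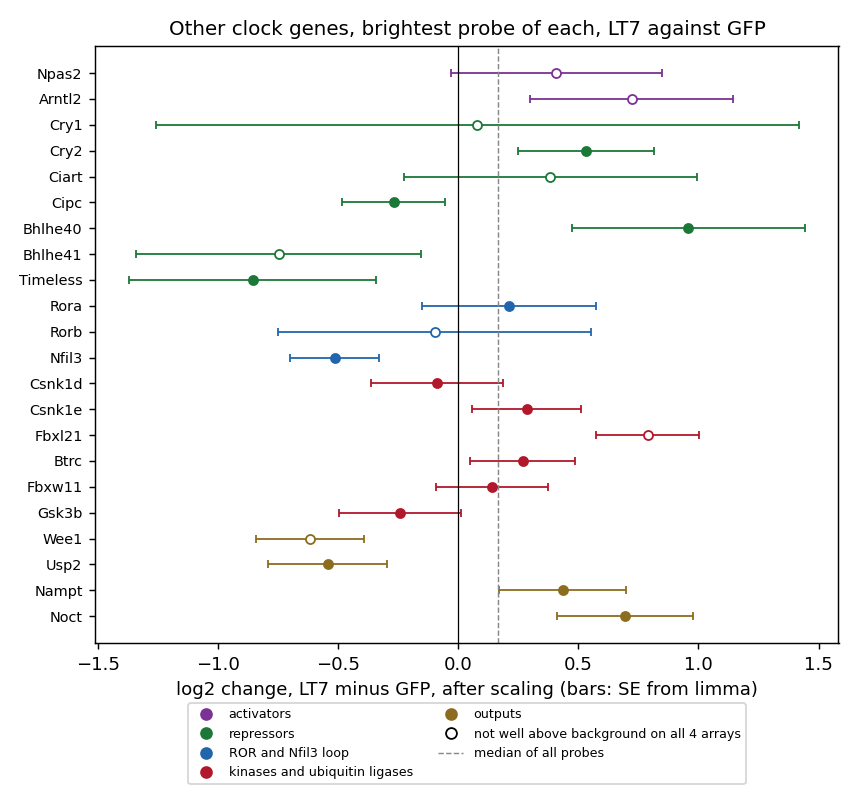
The log2 change of LT7 against GFP after scaling for the brightest probe of each of 22 other clock genes, coloured by role, with the standard error from limma. The changes run from -0.86 (Timeless) to 0.96 (Bhlhe40), and none passed an adjusted p of 0.05.

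On the arrays labelled ST7, which read 25.8% to 26.4% of all probes well above background, most probes of the set were not so. Of the 17 probes 6, from 5 of the 10 genes, were well above background on both arrays (Arntl, Clock A, Per2 A, Nr1d1 A, Nr1d1 B and Dbp), Nr1d1 C was so on 1, and 10 on neither. The probes of Per1, Per3, Nr1d2, Tef and Hlf were thus all without a measured level in ST7, whereas each of these 5 genes but Per3 had a probe well above background on both arrays of GFP and of LT7. The spike-in RNAs averaged 8.47 in log2 signal on both ST7 arrays and 8.57 and 8.76 on the GFP arrays, so their signal was not lower to the same degree. The cause of the low signal over the whole of the ST7 arrays, in the cells or in the RNA and its labelling, was not tested. Nor can less RNA of a gene per cell and fewer cells that hold it be told apart in bulk RNA.

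Before scaling 15 of the 17 probes read lower in ST7 than in GFP without overlap, against 51.2% of all probes, and 2 read higher, against 23.7%. After scaling limma called 15 of the 17 (10 higher, 5 lower), where it called 90.6% of all probes (70.7% higher and 19.8% lower), so the count is near the background. With the 75th percentile subtracted, the median over all probes went from -0.68 to 3.72 on the log2 scale, and the split moved with the scaling. Limma called 14 lower and 0 higher without scaling (25571 and 2624 of all 61306 probes) and 6 lower and 0 higher with scaling on spike-in RNAs (13703 and 242). It called 3 higher of 10 with the array median (35736 of 52277 over all probes), 3 higher of 12 with the percentile of the detected probes (33830 of 50855) and 6 higher of 13 with quantile normalization (20203 of 35276).

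Among the 6 measured probes Dbp differed most from GFP in signal. It read 49.7 and 39.8 in ST7 against 1473 and 1053 in GFP, which was 28.0-fold lower before scaling, and 57.6-fold lower than in LT7. After scaling its log2 change against GFP was -0.41 (SE 0.23, adjusted p = 0.15), which is -4.13 relative to the median of all probes. Without scaling it was -4.81 (adjusted p = 6.1e-05) and with spike-in scaling -4.62 (adjusted p = 0.045). Among the 12880 probes that all GFP and ST7 arrays read well above background it lay at percentile 12.5.

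The activators followed. Clock A read 45.4 and 52.1 in ST7, 11.9-fold lower than in GFP before scaling and -2.89 relative to the median of all probes after it. Arntl read 63.2 and 72.1, 8.10-fold lower before scaling and -2.34 relative to the median. After scaling limma called both as higher (Arntl 1.38, adjusted p = 0.001, and Clock A 0.83, adjusted p = 0.039), and both turned to lower without scaling, with the array median and with the percentile of the detected probes. The signals themselves did not overlap between ST7 and either of the other groups.

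Per2 A and Nr1d1 B were the only 2 of the 17 probes that read higher in ST7 before scaling. Per2 A read 71.6 and 58.0 in ST7 and 46.5 and 53.0 in GFP, 1.30-fold higher (adjusted p = 0.58 by limma without scaling), and after scaling its log2 change was 4.77 (SE 0.46, adjusted p = 0.00021), or 1.05 relative to the median of all probes. Per2 B, the other probe of the gene, did not rise well above background in ST7, at 2.84 and 3.17, so the pair disagreed.

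The probes of Nr1d1 disagreed in the same way. Nr1d1 B read 46.1 and 43.8 in ST7 and 37.5 and 43.5 in GFP, 1.11-fold higher (adjusted p = 0.59 without scaling) and 0.83 relative to the median of all probes after scaling. Nr1d1 A read 52.6 and 42.5 in ST7 and 238 and 245 in GFP, 5.11-fold lower before scaling and -1.68 relative to the median. Nr1d1 C read 11.8 and 17.3 in ST7 and 19.1 and 18.7 in GFP, 1.32-fold lower. The signals of the 6 measured probes ran from 39.8 to 72.1 over both ST7 arrays, while in GFP they ran from 37.5 to 1473.

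**Figure D4:**
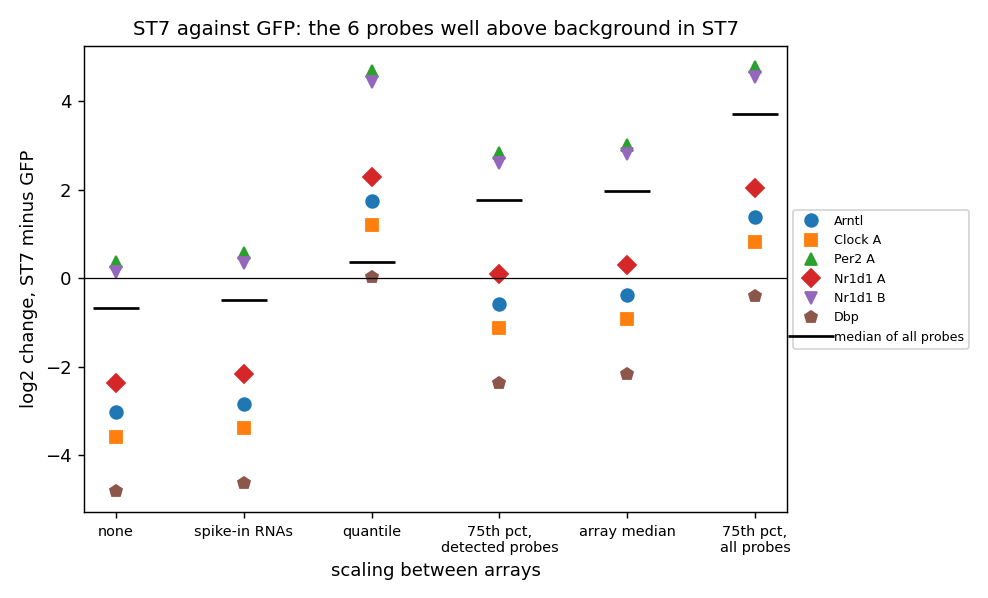
The log2 change of ST7 against GFP for the 6 probes well above background on both ST7 arrays, under 6 ways of scaling the arrays, with a black dash at the median of all probes. Arntl, Clock A and Nr1d1 A lie below 0 without scaling and above it after subtraction of the 75th percentile of all probes, while Per2 A and Nr1d1 B lie above 0 under each.

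For the probes without a measured level in ST7 only a bound can be given, in which the ST7 mean was replaced, array by array, by the lowest signal well above background where that was higher. After scaling the drop from GFP to ST7 was at least 2.64-fold for Per1, 2.37-fold for Tef A, 1.35-fold for Hlf and 1.32-fold for Nr1d2. These bounds were not tested. Limma on the values as read, not well above background in ST7, gave adjusted p = 0.0011, 0.027, 0.00057 and 0.00045 in that order. From LT7 it was at least 3.83-fold for Per1, 3.52-fold for Tef A and 1.09-fold for Nr1d2. For Hlf, which was already low in LT7, no bound above 1 was reached against LT7. The signals of these probes in ST7 were 7.21 and 3.32 for Per1, 2.95 and 15.6 for Tef A, 2.93 and 4.62 for Hlf, and 3.01 and 3.26 for Nr1d2.

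In ST7 against LT7 limma called 12 of the 17 probes, 8 higher and 4 lower, where it called 90.7% of all probes (71% higher and 19.7% lower). Before scaling 15 read lower without overlap, against 71.8% of all probes, and the same pair of probes, Per2 A and Nr1d1 B, read higher, against 10.5%.

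By the brightest probe of each, 6 of the 22 other clock genes cleared background on both arrays of ST7, and they did not share a direction. Nfil3 read 145 and 148, 13.8-fold lower than in GFP before scaling, while its second probe did not rise well above background. Rora read 58.9 and 39.9, 2.77-fold lower, and Fbxw11 read 2341 and 2049, 3.76-fold lower. Csnk1e read 57607 and 54041 in ST7, 3.35-fold higher before scaling, and its second probe was dim in both groups.

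Csnk1d read 9869 and 7695, 2.11-fold lower, while its second-brightest probe read 1.86-fold higher and the remaining ones did not rise well above background. Gsk3b read 114 and 119, 1.18-fold higher, and its second probe did not rise well above background. Over all 22 limma called 18 after scaling (12 higher, 6 lower), where it called 90.6% of all probes (70.7% and 19.8%). Before scaling 3 read higher and 14 lower without overlap, against 23.7% and 51.2% of all probes.

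Markers of other cell types moved with the ST7 label. By the brightest probe of each, 2 of 8 epithelial markers were well above background on both arrays of GFP, 1 of LT7 and 3 of ST7 (Epcam, Krt18 and Cldn3), with Cdh1 on no array, and the summed signal of the list was 115 to 206 in GFP, 139.9 to 177 in LT7 and 1916 to 2043 in ST7. The fibroblast list summed to 326033 to 333832 in GFP, 347855 to 364771 in LT7 and 15061 to 16601 in ST7. Of 4 neural markers 2 were well above background on both arrays of GFP, 2 of LT7 and 3 of ST7, and Sox2 was so in ST7 alone. The sum of the neural list was 252 to 331 in ST7 and 590 to 1074 elsewhere. None of 4 blood markers was well above background in ST7. The part of these differences in the values of the clock genes was not tested.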

How the data were processed

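Total RNA was labelled with Cy3 and read on 6 one-colour Agilent arrays on 1 slide, 1 array per sample. The deposited scanner files hold for each spot the intensity from which the authors' Agilent Feature Extraction software (10.5.1.1) had subtracted the background. The authors also deposited log2 values shifted to the 75th percentile of each array in GeneSpring, which were used as an alternative. Here outlier spots were left out, log2 signals of repeated spots were averaged per probe, and every array was shifted by its own 75th percentile. Groups were compared with limma 3.58.1 (R 4.3.3) in 1 fit of the 6 arrays, the p-values were adjusted by Benjamini-Hochberg over the whole array at a threshold of 0.05, and the procedure was tested on simulated data, where estimates were unbiased but LT7 changes as small as those of most members were not recovered at this threshold. Signals are given before scaling and log2 changes after it unless stated. A probe was taken as well above background by the flag of the scanner software, and none of the 17 probes was saturated.

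The named genes were all member probes, and of the other clock genes and the immediate early genes those whose brightest probe passed limma in LT7 against GFP or was well above background on both ST7 arrays. Limma called none of these in LT7, and those with an unadjusted p under 0.05, along with the extremes of a plot, were named after their values were seen. A pair of genes of the list of other clock genes is not reported here and was left out of its counts. Members and gene lists were chosen with earlier results of these data known. The alternatives were other scalings, background correction, a filter, fits of 2 groups, the replicate number as a block, a fold rule and the leave-out of each array. Replicates came from different passages. Promoter sequences were from RefSeq (GRCm38.p6). The files gave no probe coordinates.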

Additional observations from a re-analysis of the deposited data

How the results depend on the processing

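Of the 17 probes limma called 0 in LT7 against GFP under the other scalings, the series matrix values and the leave-out of each array. The exceptions were 2 with normexp background correction, 1 with the filter on dim probes and 2 by the fold rule. In ST7 the count of 15 against GFP became 6 with spike-in scaling, and 12 against LT7 became 2. The spike-in RNAs averaged 12.87 in log2 on LT7 replicate 1 and 8.47 to 8.76 on the other arrays. With the array left out in turn the counts in ST7 were 11 to 15 against GFP and 12 to 13 against LT7. Same-numbered replicates had deviations from the group mean that correlated at 0.078 (GFP and LT7), 0.035 (GFP and ST7) and -0.023 (LT7 and ST7) over all probes, and at 0.086, 0.33 and -0.030 over the 11140 that every array read well above background. Not every pair passed 0.1, so the numbers were not taken to pair the samples. With the replicate number as a block they were 13 and 13 in ST7 and 0 in LT7, and Clock A in ST7 against GFP lost its call (adjusted p = 0.067). That probe also lost it without either GFP array or either ST7 array (0.68 to 0.97, adjusted p = 0.069 to 0.15). Scan as a block was not run, since the second scan held 1 array and the fit equals that without LT7 replicate 1.

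In LT7 against GFP spike-in scaling, which subtracts a single value from each array, shifted all 17 probes alike. The median over all probes became -2.05. The sign turned for Arntl (-2.02), Clock A (-2.06), Per1 (-1.68), Per2 B (-1.49), Nr1d1 C (-1.68), Dbp (-1.08), Tef A (-1.65), Tef B (-1.91) and Tef C (-2.04). The array median turned Clock B (0.089) and Per3 (0.0061), quantile normalization Per3 (0.024), and normexp Per3 (0.010). Leaving out 1 array gave both signs for Clock A (-0.17 to 0.49), Clock B (-0.39 to 0.21), Clock C (-1.11 to 0.22), Per3 (-0.39 to 0.040), Nr1d2 (-0.61 to 0.072) and Tef C (-0.10 to 0.46). In ST7 against GFP the sign turned without scaling for Arntl (-3.02), Clock A (-3.57) and Nr1d1 A (-2.35), with spike-in scaling for Arntl (-2.83), Clock A (-3.38) and Nr1d1 A (-2.16), with the array median for Arntl (-0.37) and Clock A (-0.92), with the percentile of detected probes for Arntl (-0.57) and Clock A (-1.12), with normexp for Clock A (-0.10), and with quantile normalization for Dbp (0.024). No scaling, the array median and the percentile of detected probes also differ from the main scaling by a single value on each array. Those settings therefore shifted all probes alike too. The cause of the turns under quantile normalization, normexp and the leave-out of an array, and of the high spike-in mean on LT7 replicate 1, was not tested. Probes near background, and nearly all in ST7, are limited by their signal over background.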

Other observations

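Per1 and Per2 belong to the genes that serum and cAMP induce at once, and 12 others of that class were read on the same arrays by the brightest probe of each, all of them well above background in GFP and in LT7. In LT7 limma called 0 of the 12 and 5 had an unadjusted p under 0.05 (Junb, Ier2, Dusp1, Sik1 and Atf3, named after their values were seen), against 0.176% and 27.2% of all probes. The log2 change was negative for 9 of the 12. Their median was -0.57, beside 0.17 over all probes and 0.031 over the 26977 that all GFP and LT7 arrays read well above background. Dusp1, a phosphatase of MAP kinases, read 1679 and 1426 in GFP and 902 and 687 in LT7 (log2 change -0.88, SE 0.21, adjusted p = 0.10). Sik1, a kinase induced by cAMP, lay on the other side and read 201 and 157 in GFP and 584 and 290.2 in LT7 (log2 change 1.31, SE 0.34, adjusted p = 0.10).

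Junb, a subunit of AP-1, read 26291 and 23456 in GFP and 8756 and 16237 in LT7, so that its LT7 arrays differed widely. In ST7 11 of the 12 read lower than in GFP before scaling without overlap, against 51.2% of all probes, and 6 were well above background on both arrays. All 12 were well above background in GFP and had room to read lower, against 57.5% and 53.6% of all probes on its 2 arrays. Crem, a cAMP responsive transcription factor, read 201 and 228 in GFP and 104 and 109 in ST7, and Nr4a1, a nuclear receptor, read 18865 and 12668 in GFP and 186 and 205 in ST7. Klf4, a zinc finger transcription factor, read 8266 and 9293 in GFP and 35.9 and 30.9 in ST7, Junb read 176 and 178 in ST7, and Dusp1 read 17.0 and 15.8. Fosb, another subunit of AP-1, was the exception among the 12 and overlapped, with 41.3 and 33.8 in GFP and 34.2 and 29.2 in ST7. Dimmer probes of a pair of these genes overlapped too, with 77.0 and 80.7 in ST7 against 79.2 and 84.5 in GFP for Ier2, whose brighter probes were not well above background in ST7, and 109.9 and 114 against 126 and 114 for Crem.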
